A study of Homo sapiens with 30 samples.

Results

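The comparison set HT29 cells that had received the ethanol extract of Bojungikgi-tang at 500 µg/mL beside HT29 cells that had received the ethanol extract of Sayeok-tang at the same dose. Libraries were chosen by their labels alone, 3 for each extract, so 6 of the 30 libraries in the series entered the contrast. HT29 is a human colorectal adenocarcinoma cell line that grows as an epithelial layer. Both extracts were made from dried herbs with 70% ethanol, and cells were collected after 24 h. The labels name no other agent for either group and give no DMSO percentage for the extract libraries. Lower doses of the same extracts, 100 and 20 µg/mL with 3 libraries each, and 3 vehicle libraries served to place the values. The labels give 0.1% DMSO for the vehicle where the series text gives 2%. Bojungikgi-tang and Sayeok-tang are herbal prescriptions of East Asian medicine that are given for digestive complaints. The series text says that extracts with a stronger effect on growth were dosed at a growth-inhibiting concentration instead of 500 µg/mL. Both extracts here carry the 500 µg/mL label. The labels do not say whether the 3 libraries of a group came from separate cultures, so the spread between libraries may be technical. The p-values and standard errors use that spread pooled over the 13 groups of all 30 libraries, not that of the 6 alone.

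Several sensors of the gut epithelium respond to plant compounds. The aryl hydrocarbon receptor (AhR) binds planar ring compounds, moves to the nucleus and switches on CYP1 monooxygenases. NRF2 is released from its inhibitor KEAP1 by electrophiles and switches on detoxifying and antioxidant enzymes, aldo-keto reductases among them. ATF4 is translated when amino acids run short or the endoplasmic reticulum is stressed, and switches on amino acid synthesis and stress genes. HIF transcription factors switch on glycolysis and vessel growth genes when oxygen is low.

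The 3 Bojungikgi libraries held 43679935 to 56696780 expected counts and the 3 Sayeok libraries 36273849 to 54607742. The markers of colon epithelium were present, with KRT8 at 5350 CPM in Bojungikgi and 5260 CPM in Sayeok (counts per 1e6 with TMM scaling, CPM, group means) and EPCAM at 516 and 528 CPM. CDX1, a homeobox factor of the intestine, was low at 1.08 CPM in Bojungikgi and 1.06 CPM in Sayeok. The 13 fibroblast and endothelial markers summed to 3.98 to 4.26 CPM in Bojungikgi libraries and 3.35 to 4.80 CPM in Sayeok libraries. KDR, PDGFRA and COL1A2 were at 0 in all 6. The 12 leukocyte markers summed to 1630 to 2020 CPM in Bojungikgi and 1860 to 1990 CPM in Sayeok. Nearly all of it was LYZ, which secretory gut epithelium also makes; without LYZ the sums were 10.2 to 11.1 CPM and 10.5 to 11 CPM in the same order.

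Of the 6 libraries, 2 stood apart, each on its own principal component. Bojungikgi replicate 2 lay at 45.9 on the first component (30.8% of the variance), against -19.5 to -0.83 for the rest. Cytosolic ribosomal protein genes took 3.78% of its counts, against 5.12% to 5.48% in the other 5. Its count differences from its own replicates gave chi-square values of 33.1 and 39.6 per gene, where the other replicate pairs gave 5.07 to 10.4. Sayeok replicate 3 lay at 36.3 on the second component (20.6% of the variance), against -16.3 to 7.51 for the rest. Its ribosomal protein share was 5.2%, and its chi-square values from its own replicates were 6.64 and 5.68, within the range of the other pairs. Counts and calls are given with all 6 libraries and without Bojungikgi replicate 2, and calls lost without Sayeok replicate 3 are named. Among the vehicle libraries, replicate 1 lay furthest out of all 30 on their first component, at -57.3. Vehicle replicates 2 and 3 lay at -18.5 and -11.2. Its ribosomal protein share was 6.91%, against 5.89% and 5.56% in those. Vehicle means include it.

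The extracts differed in few genes. Of 18783 genes tested, 45 passed an adjusted p of 0.05 (0.24%) in edgeR's quasi-likelihood test over all 30 libraries. Of these, 15 were higher (0.0799%) and 30 were lower (0.16%) in cells given Bojungikgi. The genes that were higher held CYP1A1, CYP1B1 and ALDH1A3, which AhR ligands are known to raise, and 7 genes that span over 300 kb of genome. The genes that were lower held aldo-keto reductases, stress genes of the ATF4 group and hypoxia genes. In each of the 45 genes the libraries of the extracts did not overlap, as was also so in 2918 of all genes tested (15.5%). At an unadjusted p of 0.05 there were 2124 genes (11.3%), 1091 higher (5.81%) and 1033 lower (5.5%). Without Bojungikgi replicate 2 the fit called 27 genes, 7 of them higher, and 25 of the 27 were among the 45. The 9 higher genes then not called were KIAA1549L, ENSG00000258302, ENSG00000280402, MACROD2, NAALADL2, DPYD, BTBD9, PLA2G4F and VIL1, and the lower ones included PTGR1, ASNS, TM4SF1, ABHD4, ASS1, TSC22D3, DBNDD1, FGF19, NR4A1 and DEPP1. Without Sayeok replicate 3 the fit called 34 genes, 32 of them among the 45; the 6 higher genes lost were KIAA1549L, ENSG00000258302, MACROD2, BTBD9, PLA2G4F and VIL1, and the lower ones included PTGR1, TM4SF1, ABHD4, ASS1, DBNDD1 and DEPP1. Over the 6 fits that each left out 1 library, 19 genes were called in all 6. MACROD2, ENSG00000258302, PLA2G4F, VIL1, ASS1 and DBNDD1 were called in none of them. KIAA1549L, DEPP1 and PTGR1 were called in 1, and ENSG00000280402, NDRG1, NXPH4, ABHD4 and TM4SF1 in 2. ASNS, BTBD9 and TSC22D3 were called in 3, DPYD, NAALADL2, UST, FGF19, NR4A1 and VEGFA in 4, and TLN2 in 5. In a fit of the 6 libraries alone 2 genes were called, CYP1B1 and IGFL2-AS1, and why it called fewer was not tested. There all 45 kept their direction and an unadjusted p under 0.05. In bulk RNA, fewer cells of a kind and less RNA per cell cannot be told apart.

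**Figure D1:**
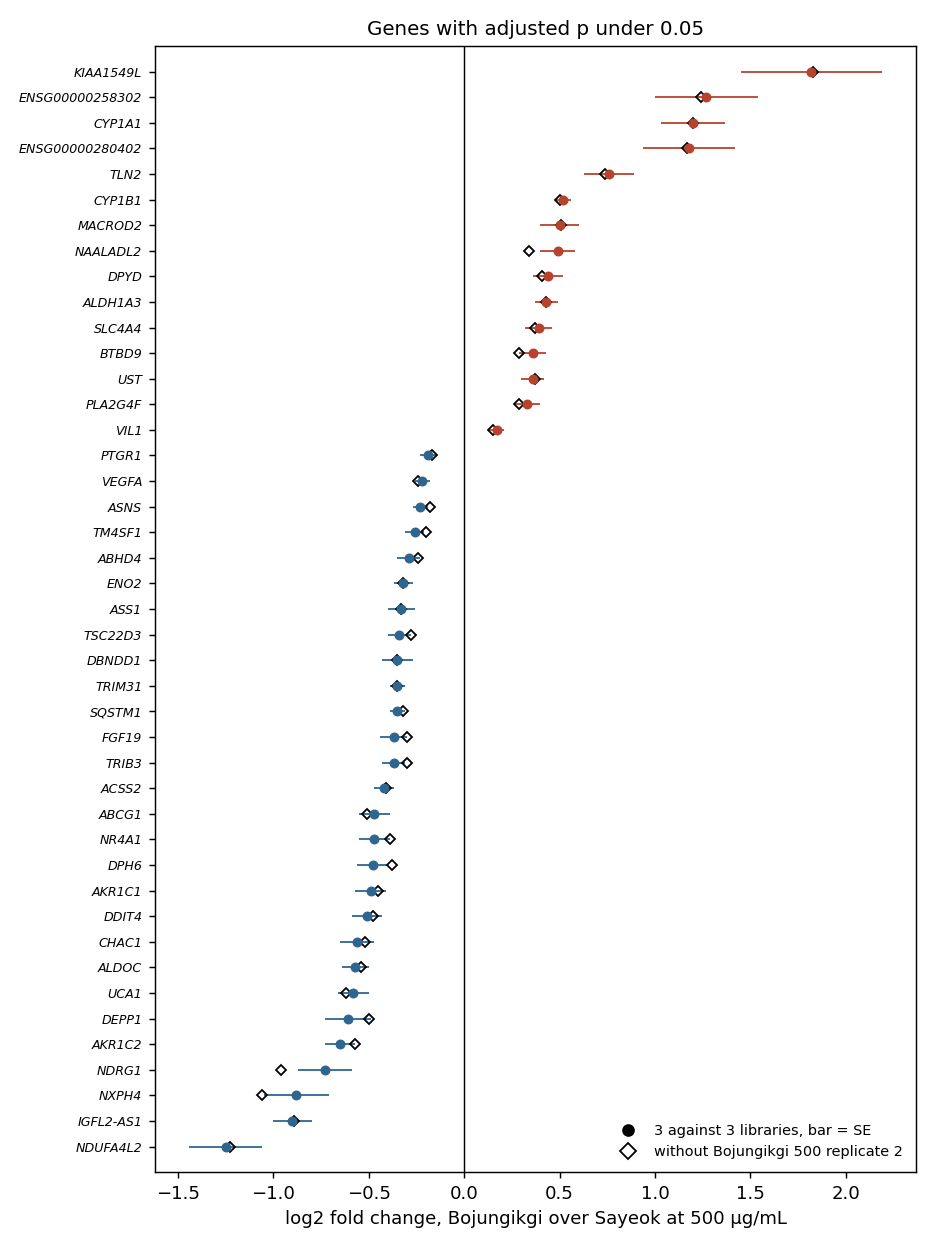
Log2 fold change of 43 of the 45 called genes, Bojungikgi over Sayeok at 500 µg/mL. Filled points (3 libraries against 3) carry the standard error from the fit over all 30 libraries. Open diamonds give the value without Bojungikgi replicate 2. All 43 open diamonds lie on the same side of 0 as their filled points; KIAA1549L is highest at 1.82 and NDUFA4L2 lowest at -1.25.

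CYP1A1, CYP1B1 and ALDH1A3 were each higher with Bojungikgi in all 3 libraries. By GENCODE 29 on GRCh38 they lie at chr15:74719542-74725610, chr2:38066973-38109902 and chr15:100877714-100916626. CYP1A1 is the monooxygenase that AhR ligands raise most in many cell types. It measured 2.54, 2.85 and 3.04 CPM in Bojungikgi libraries, against 1.52, 0.849 and 1.36 CPM in Sayeok libraries. The lowest Bojungikgi library lay above the highest Sayeok library, and the log2 fold change was 1.2 ± 0.17 (SE, adjusted p 4.39e-04), a 2.30-fold difference. CYP1B1, its relative that also oxidises oestrogens, measured 89.4, 93.7 and 90.5 CPM with Bojungikgi, against 64.7, 61.4 and 64.5 CPM with Sayeok. These values gave the smallest adjusted p of the 3 genes, 1.86e-07, at a log2 fold change of 0.52 ± 0.04. ALDH1A3, which makes retinoic acid from retinal, measured 23.5, 24.6 and 25.6 CPM with Bojungikgi and 17.4, 18.8 and 18.6 CPM with Sayeok. Its log2 fold change was 0.43 ± 0.06 (adjusted p 1.61e-04). Each of the 3 calls held without Bojungikgi replicate 2, at log2 values of 1.2, 0.50 and 0.43, and in each of the 6 fits that left out 1 library.

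The other members of the AhR list were not called. Of its 12 genes, 9 were tested, and 3 were called higher and none lower, where 0.0799% of all genes were called higher. At an unadjusted p of 0.05, 3 were higher and 3 lower, against 5.81% and 5.5% of all genes. The median log2 fold change was 0.06, against 0.00 over all genes tested. The feedback repressors were close between extracts. AHRR averaged 4.72 ± 0.482 CPM with Bojungikgi and 4.61 ± 0.564 CPM with Sayeok (SD, n = 3 each), and TIPARP 106 ± 2.45 CPM and 101 ± 6.67 CPM. ALDH3A1, an aldehyde dehydrogenase, averaged 33.3 ± 2.55 CPM with Bojungikgi and 38.9 ± 0.232 CPM with Sayeok, and its log2 fold change of -0.22 ± 0.07 did not pass (adjusted p 0.235). NQO1, a quinone reductase under both AhR and NRF2, averaged 600.0 ± 67.9 CPM and 690.0 ± 24.9 CPM in the same order, at -0.20 ± 0.06 (adjusted p 0.211). The receptor gene AHR averaged 156 ± 15.7 CPM with Bojungikgi and 139 ± 6.14 CPM with Sayeok, with overlapping libraries and an adjusted p of 0.359.

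The AhR dimer binds a short core, GCGTG. The 250 bases before the start of CYP1A1 (chr15:74725529-74725778, minus strand) and of ALDH1A3 (chr15:100879581-100879830, plus strand) are shown because both genes were higher and both windows hold the core. Sequences are from RefSeq on GRCh38.p14, with the core in capitals; CACGC is the core on the other strand.
CYP1A1: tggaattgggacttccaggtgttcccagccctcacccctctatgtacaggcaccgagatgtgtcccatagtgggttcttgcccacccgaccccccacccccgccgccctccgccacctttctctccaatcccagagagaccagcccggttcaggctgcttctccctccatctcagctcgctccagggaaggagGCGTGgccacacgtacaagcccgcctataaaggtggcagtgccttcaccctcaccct
ALDH1A3: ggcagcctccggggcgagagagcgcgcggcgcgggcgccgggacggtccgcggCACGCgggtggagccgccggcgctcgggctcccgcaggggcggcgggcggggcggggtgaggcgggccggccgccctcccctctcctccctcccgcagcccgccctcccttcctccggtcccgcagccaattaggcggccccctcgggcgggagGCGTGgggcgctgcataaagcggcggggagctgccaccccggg
The core began 57 bases before the start in CYP1A1, and 197 and 43 bases before it in ALDH1A3. GCGTG was searched on both strands in windows from 250 bases before to 50 after the start, and a gene counted if any of its windows held it. The core was found for 7 of the 10 higher genes with a RefSeq promoter (70.0%, 17 windows) and 9 of 19 lower ones (47.4%, 30 windows). Over all 27305 genes with such a window (35116 windows) the share was 40.6%, so a match is common and describes sequence only. Both called sets had more windows per gene than all genes, so the shares are not on equal terms.

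**Figure D2:**
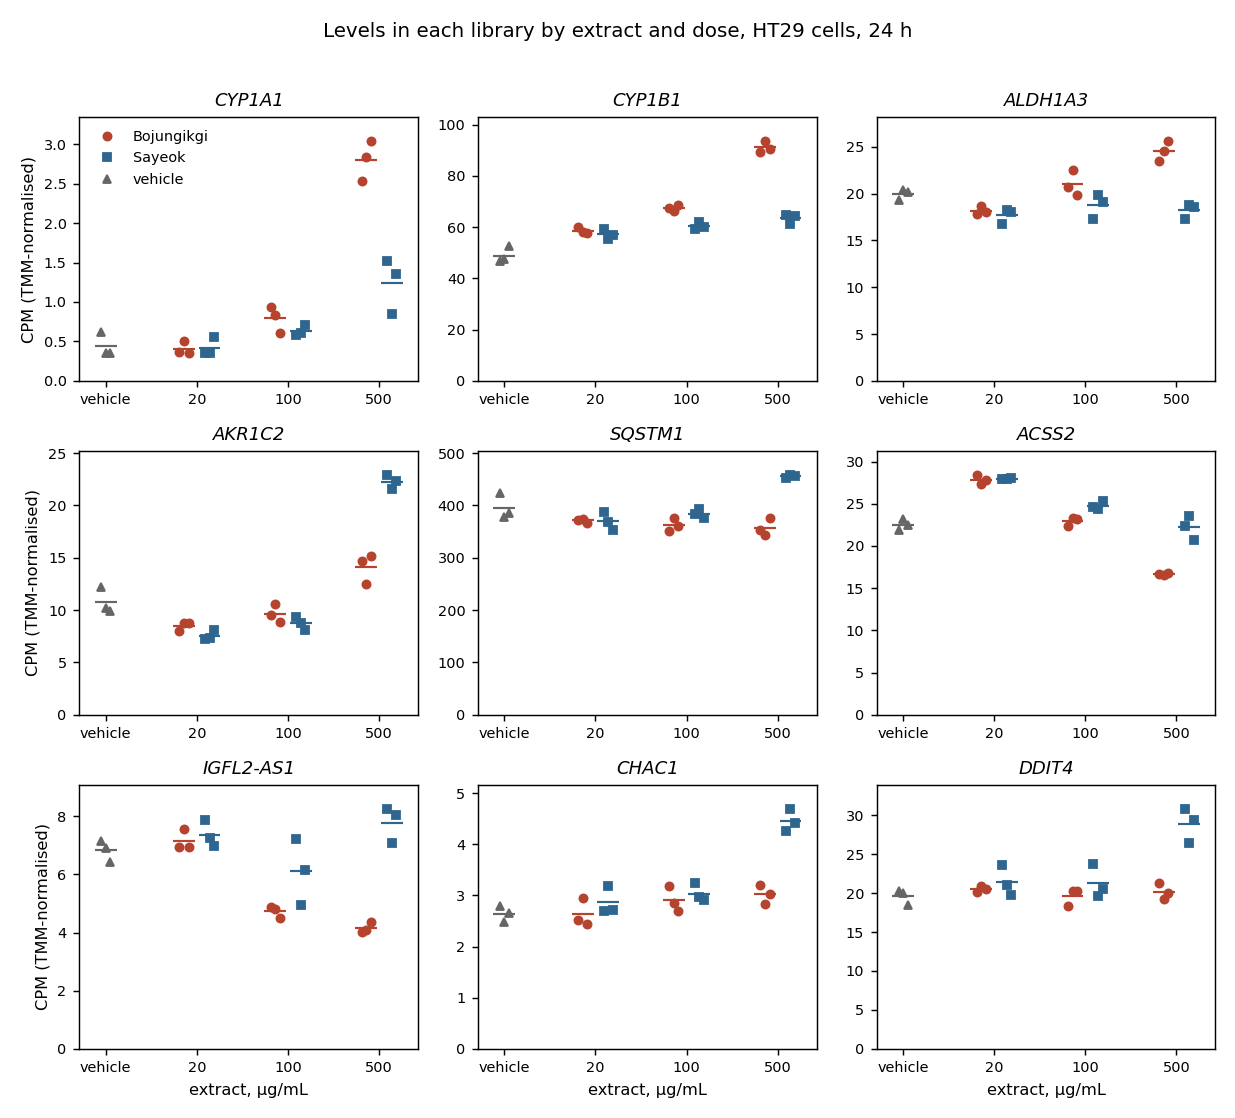
Level of 9 genes (TMM-normalised CPM) in each library by dose, vehicle at the left, Bojungikgi (circles) left of Sayeok (squares), bars at the means of 3 libraries. CYP1A1, CYP1B1 and ALDH1A3 separate upward in Bojungikgi at 500 µg/mL and the other 6 genes separate downward, while at 20 µg/mL the points of the 2 extracts lie close together.

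The difference in CYP1B1 grew with dose. CYP1B1 averaged 58.7, 67.4 and 91.2 CPM at 20, 100 and 500 µg/mL of Bojungikgi, against 57.2, 60.5 and 63.5 CPM at the same doses of Sayeok and 48.9 CPM in vehicle. The difference at 500 less that at 20 µg/mL was 0.49 ± 0.06 on the log2 scale (adjusted p 7.40e-04). CYP1A1 averaged 0.407, 0.794 and 2.81 CPM over the Bojungikgi doses, against 0.423, 0.635 and 1.24 CPM over the Sayeok doses and 0.441 CPM in vehicle. The same test gave 1.19 ± 0.34 for CYP1A1, which did not pass (adjusted p 0.728). Both extracts thus carried more CYP1A1 at 500 than at 20 µg/mL, and Bojungikgi the higher level of the pair.

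Aldo-keto reductases AKR1C1 and AKR1C2 (chr10:4963253-4983283 and chr10:4987400-5018031) were lower with Bojungikgi. AKR1C2, which reduces ketosteroids and reactive carbonyls, measured 14.7, 12.5 and 15.2 CPM in Bojungikgi libraries, against 22.9, 21.6 and 22.3 CPM in Sayeok libraries. The highest Bojungikgi library lay well below the lowest Sayeok library, and the log2 fold change was -0.65 ± 0.08 (adjusted p 7.78e-05). AKR1C1, its neighbour on chromosome 10, measured 15.7, 15.4 and 18.3 CPM with Bojungikgi and 22.3, 23.5 and 23.8 CPM with Sayeok, at -0.49 ± 0.08 (adjusted p 0.00263). The 2 genes are near-identical in sequence, so how their reads were split between them is uncertain. AKR1C3 averaged 74.7 ± 15.7 CPM and 91.2 ± 10.3 CPM (SD) in the same order with overlapping libraries, and AKR1B10 142 ± 7.53 CPM and 162 ± 2.43 CPM; neither passed (adjusted p 0.476 and 0.263). AKR1C2 stood at 8.50 CPM with Bojungikgi and 7.54 CPM with Sayeok at 20 µg/mL, and the difference at 500 less that at 20 was -0.83 ± 0.12 (adjusted p 0.00231).

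Across the NRF2 list, 29 of 30 genes were tested, 3 were called lower and none higher, and 25 had a log2 fold change below 0, where 49% of all genes did. Of all genes 0.16% were called lower. At an unadjusted p of 0.05, 17 members were lower and 1 higher, against 5.5% and 5.81% of all genes. The list's median was -0.14 and was -0.12 without Bojungikgi replicate 2, where 2 members stayed called. HMOX1, which breaks down haem, averaged 11.8 ± 0.701 CPM with Bojungikgi and 13.6 ± 0.379 CPM with Sayeok without passing (adjusted p 0.244). The cystine importer SLC7A11 averaged 224 ± 23.3 CPM and 230.0 ± 12.5 CPM in the same order, with a log2 fold change of -0.03 ± 0.07. Outside the NRF2 list lay SQSTM1, the autophagy receptor p62 that binds KEAP1 and is itself an NRF2 target. It was counted with the NRF2 regulators, of which 8 were tested and 1 was called. SQSTM1 measured 353, 344 and 376 CPM with Bojungikgi, against 452, 458 and 457 CPM with Sayeok. It was lower by a log2 value of -0.35 ± 0.04 (adjusted p 1.10e-04), and the dose difference, -0.36 ± 0.06, passed as well (adjusted p 0.0277). PTGR1, a reductase of lipid aldehydes, was likewise outside the NRF2 list. It averaged 70.8 ± 2.16 CPM with Bojungikgi and 81.0 ± 1.25 CPM with Sayeok at -0.19 ± 0.04 (adjusted p 0.0423). That call did not hold without Bojungikgi replicate 2 (adjusted p 0.242).

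**Figure D3:**
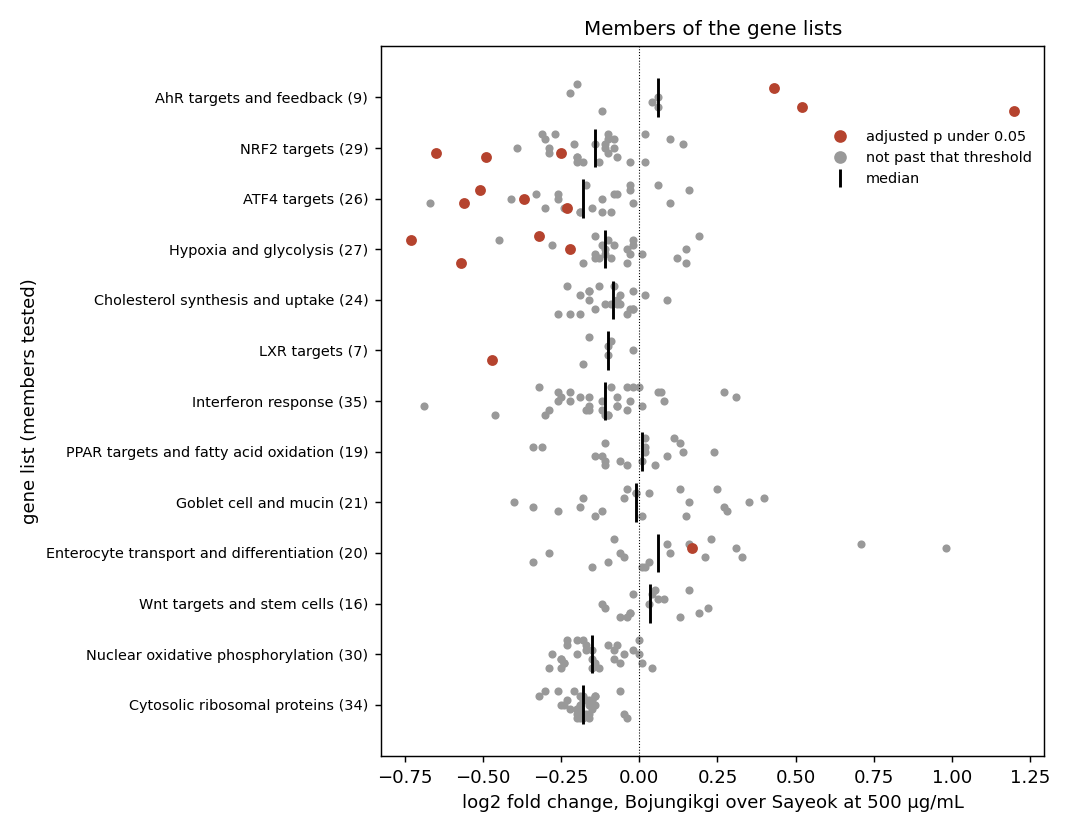
Log2 fold change of each tested member of 13 gene lists, Bojungikgi over Sayeok at 500 µg/mL, with members past an adjusted p of 0.05 in red and the list median as a bar. Called members of the NRF2, ATF4 and hypoxia lists lie left of 0 and those of the AhR list right of it; the ribosomal protein points lie left of 0 with none called.

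Of the stress genes of the ATF4 list, 4 were lower with Bojungikgi. DDIT4, an inhibitor of mTORC1, measured 21.4, 19.3 and 20.0 CPM in Bojungikgi libraries, against 30.8, 26.4 and 29.4 CPM in Sayeok libraries. Bojungikgi libraries were near the vehicle mean of 19.6 CPM and Sayeok libraries above it; the log2 fold change between extracts was -0.51 ± 0.08 (adjusted p 6.55e-04). CHAC1, which degrades glutathione, measured 3.21, 2.85 and 3.02 CPM with Bojungikgi and 4.26, 4.69 and 4.42 CPM with Sayeok, at -0.56 ± 0.09 (adjusted p 0.0032). TRIB3, a pseudokinase that restrains AKT and ATF4, measured 42.9, 35.0 and 39.7 CPM with Bojungikgi and 50.3, 51.3 and 50.9 CPM with Sayeok, at -0.37 ± 0.06 (adjusted p 0.00403). These 3 calls held in each of the 6 fits that left out 1 library. ASNS, asparagine synthetase, measured 70.0, 62.9 and 68.5 CPM with Bojungikgi and 78.5, 80.5 and 77.0 CPM with Sayeok, at -0.23 ± 0.04 (adjusted p 0.00773). Its call was lost without Bojungikgi replicate 2 (adjusted p 0.0828).

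Of the 29 genes of the ATF4 list, 26 were tested, 4 were called lower and none higher, and 23 were below 0. Of all genes tested, 0.16% were called lower and 49% were below 0. The median was -0.18, and -0.12 without Bojungikgi replicate 2. At an unadjusted p of 0.05, 15 members were lower and none higher, against 5.5% and 5.81% of all genes. GDF15, a secreted stress cytokine, averaged 37.3 ± 6.79 CPM with Bojungikgi and 49.7 ± 2.12 CPM with Sayeok without passing in edgeR (adjusted p 0.103); it passed in DESeq2. The 18 aminoacyl-tRNA synthetase genes had a median of 0.00, with none called by edgeR or DESeq2 and none higher and 1 lower at an unadjusted p of 0.05. The 18 genes of the unfolded protein response had a median of 0.03, with none called by either tool and 1 in each direction at that p. ASS1, argininosuccinate synthetase of arginine synthesis, measured 12, 12.2 and 12.4 CPM with Bojungikgi and 15.7, 15.5 and 14.8 CPM with Sayeok (-0.33 ± 0.07, adjusted p 0.0474), a call that none of the 6 fits without 1 library kept.

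ATF4 with C/EBP partners binds a composite site whose core can be written TGATGNAA, a motif chosen after the values were seen. The 250 bases before the start of CHAC1 (chr15:40953221-40953470, plus strand) and of ASNS (chr7:97872409-97872658, minus strand) are shown because these 2 lower genes hold it. Sequences are from RefSeq on GRCh38.p14, with the match in capitals; TTGCATCA in CHAC1 is the core on the other strand.
CHAC1: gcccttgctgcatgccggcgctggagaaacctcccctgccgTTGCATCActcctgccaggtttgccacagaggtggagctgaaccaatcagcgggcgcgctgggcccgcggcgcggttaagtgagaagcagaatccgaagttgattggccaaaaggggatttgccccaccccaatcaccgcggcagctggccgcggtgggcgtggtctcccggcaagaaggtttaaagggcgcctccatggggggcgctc
ASNS: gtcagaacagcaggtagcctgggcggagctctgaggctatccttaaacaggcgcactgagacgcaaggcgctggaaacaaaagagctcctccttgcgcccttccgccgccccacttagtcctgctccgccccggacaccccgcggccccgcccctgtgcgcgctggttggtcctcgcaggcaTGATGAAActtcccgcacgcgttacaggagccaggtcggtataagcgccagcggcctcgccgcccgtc
The match began 209 bases before the start in CHAC1 and 68 bases before it in ASNS. Of the 19 lower genes with a RefSeq promoter 2 held it (10.5%), none of the 10 higher ones did, and over all 27305 genes the share was 4.46%. Genes were counted by any window as for GCGTG, with the same unequal number of windows per gene.

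Of the genes that low oxygen induces, 4 of the list were lower with Bojungikgi. NDRG1, a differentiation and hypoxia gene, measured 16.2, 25.8 and 17.2 CPM in Bojungikgi libraries, against 37.1, 33.5 and 26.8 CPM in Sayeok libraries. The libraries nearly met, at 25.8 CPM in Bojungikgi replicate 2 and 26.8 CPM in Sayeok replicate 3; the log2 fold change was -0.73 ± 0.14 (adjusted p 0.0285) and -0.96 without Bojungikgi replicate 2 (adjusted p 3.51e-04). Over the 6 fits without 1 library it ran from -0.96 to -0.60, and the call was lost without Bojungikgi replicate 1 or 3 and without Sayeok replicate 1 or 2, and in the fits of the 18 Bojungikgi and Sayeok libraries. ALDOC, an aldolase of glycolysis, measured 16.1, 14.7 and 15.4 CPM with Bojungikgi and 23.0, 24.5 and 21 CPM with Sayeok, at -0.57 ± 0.07 (adjusted p 1.12e-04). ENO2, an enolase, measured 20.6, 19.9 and 19.6 CPM with Bojungikgi and 26.1, 24.9 and 24.1 CPM with Sayeok, at -0.32 ± 0.05 (adjusted p 5.29e-04). VEGFA, the vascular growth factor, measured 71.5, 72.7 and 68.9 CPM with Bojungikgi and 86.2, 79.3 and 82.9 CPM with Sayeok, at -0.22 ± 0.04 (adjusted p 0.0083). Of the 28 genes of the hypoxia and glycolysis list, 27 were tested and these 4 were called lower, against 0.16% of all genes. Below 0 were 22, against 49% of all genes. At an unadjusted p of 0.05, 10 were lower and 2 higher, against 5.5% and 5.81% of all genes. The median was -0.11. All 4 stayed called without Bojungikgi replicate 2, where the median was -0.07. Without Sayeok replicate 1, or without Bojungikgi replicate 3, 2 of the list were called.

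NDUFA4L2, a mitochondrial protein that HIF raises, had the lowest log2 fold change of the called genes, at 0.808, 0.926 and 1.11 CPM with Bojungikgi against 2.40, 2.69 and 1.64 CPM with Sayeok. Its log2 fold change was -1.25 ± 0.19 (adjusted p 9.41e-04). The Sayeok mean at 20 µg/mL was 0.758 CPM, the Bojungikgi mean 0.887 CPM and the vehicle mean 1.16 CPM. The higher level was thus seen with Sayeok at 500 µg/mL, and the vehicle mean lay above both 20 µg/mL means. NXPH4, a neurexophilin gene beside it on chromosome 12, measured 0.867, 1.26 and 0.919 CPM with Bojungikgi and 1.97, 1.97 and 1.61 CPM with Sayeok (-0.88 ± 0.17, adjusted p 0.012), a call lost without Bojungikgi replicate 1 or 3 and without Sayeok replicate 1 or 2. Both genes were outside the rule for named genes because of their low level, and were named after their values were seen. BHLHE40, a clock repressor that hypoxia and other stresses raise, averaged 7.01 ± 0.367 CPM with Bojungikgi and 9.01 ± 0.732 CPM with Sayeok without passing (adjusted p 0.0727).

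Lipid genes differed at 2 points. ACSS2, which makes acetyl-CoA from acetate and is a target of SREBP, measured 16.7, 16.6 and 16.8 CPM in Bojungikgi libraries, against 22.4, 23.5 and 20.7 CPM in Sayeok libraries (-0.42 ± 0.05, adjusted p 1.62e-05). It averaged 27.9, 23.0 and 16.7 CPM over rising doses of Bojungikgi and 28.0, 24.8 and 22.2 CPM over those of Sayeok, with 22.5 CPM in vehicle. The difference at 500 less that at 20 was -0.41 ± 0.06 (adjusted p 0.00604). ACSS2 was the only call among 10 tested genes of fatty acid synthesis, with 5 above 0, 5 below and a median of -0.01. At an unadjusted p of 0.05, 3 of that list were lower and none higher, against 5.5% and 5.81% of all genes. ABCG1, a cholesterol exporter under LXR, measured 5.80, 6.25 and 5.78 CPM with Bojungikgi and 7.54, 8.27 and 9 CPM with Sayeok (-0.47 ± 0.08, adjusted p 0.0032). It was the only call among 7 tested LXR targets, which had a median of -0.10. All 7 were below 0, against 49% of all genes. ABCA1, the partner exporter, averaged 6.03 ± 0.560 CPM and 6.83 ± 0.325 CPM in the same order with overlapping libraries (adjusted p 0.441).

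None of the 24 genes of cholesterol synthesis and uptake was called by edgeR, and DESeq2 called 3 lower, HSD17B7, FDPS and FDFT1. At an unadjusted p of 0.05 in edgeR, 10 were lower and none higher, against 5.5% and 5.81% of all genes. FDPS, farnesyl diphosphate synthase, averaged 147 ± 13.7 CPM with Bojungikgi and 172 ± 4.91 CPM with Sayeok at -0.23 ± 0.06 (adjusted p 0.103). HSD17B7, a sterol reductase, averaged 14.8 ± 1.43 CPM and 17.8 ± 0.773 CPM in the same order (adjusted p 0.0864). HMGCS1, HMG-CoA synthase, averaged 217 ± 1.91 CPM and 224 ± 1.83 CPM. The list's median was -0.09, and -0.07 without Bojungikgi replicate 2.

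Other lower genes belonged to no single list. IGFL2-AS1, a long non-coding RNA (chr19:46189166-46203083), measured 4.02, 4.09 and 4.35 CPM with Bojungikgi, against 8.25, 7.07 and 8.03 CPM with Sayeok. Its log2 fold change was -0.90 ± 0.10 (adjusted p 1.62e-05). It averaged 7.15, 4.73 and 4.15 CPM over rising doses of Bojungikgi, against 7.37, 6.11 and 7.78 CPM over those of Sayeok, and the dose difference was -0.86 ± 0.14 (adjusted p 0.00604). No source used here states the strand setting of the counting, so reads of this antisense gene and of a partner on the other strand may not be told apart. UCA1, a long non-coding RNA of urothelial and colon tumours, measured 17.8, 20.2 and 19.2 CPM with Bojungikgi and 26.9, 26.8 and 31.8 CPM with Sayeok (-0.58 ± 0.08, adjusted p 1.61e-04). TRIM31, a ubiquitin ligase of gut epithelium, measured 162, 163 and 165 CPM with Bojungikgi and 213, 202 and 208 CPM with Sayeok (-0.35 ± 0.04, adjusted p 7.78e-05). FGF19, the ileal hormone that bile acids raise through FXR, measured 54.1, 46.3 and 54.2 CPM with Bojungikgi and 63.1, 71.1 and 65.2 CPM with Sayeok (-0.37 ± 0.07, adjusted p 0.00809, and 0.0828 without Bojungikgi replicate 2). NR4A1, an immediate early nuclear receptor, averaged 6.66 ± 0.661 CPM with Bojungikgi and 9.2 ± 0.5 CPM with Sayeok (-0.47 ± 0.08, adjusted p 0.00505, and 0.0572 without that library).

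Further lower genes were DPH6, DEPP1, TSC22D3, DBNDD1, ABHD4 and TM4SF1, with log2 fold changes from -0.61 for DEPP1 to -0.26 for TM4SF1. DPH6, which completes diphthamide on elongation factor 2, averaged 8.38 ± 1.05 CPM with Bojungikgi and 11.7 ± 0.626 CPM with Sayeok and held without Bojungikgi replicate 2 (adjusted p 0.0295). The other 5 were not called without that library. DEPP1 and TSC22D3 are FOXO targets, and TSC22D3 is also raised by glucocorticoids; it averaged 16.4 ± 1.12 CPM with Bojungikgi and 20.7 ± 1.15 CPM with Sayeok. FGF19, TRIM31, PTGR1, ASS1, DEPP1, DBNDD1, ABHD4 and TM4SF1 were named after their values were seen.

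The other higher genes were mostly long. TLN2, a talin that links integrins to actin, measured 2.52, 2.37 and 2.02 CPM in Bojungikgi libraries, against 1.22, 1.40 and 1.44 CPM in Sayeok libraries (0.76 ± 0.13, adjusted p 0.00486). Its Bojungikgi mean lay near the 2.21 CPM and 2.27 CPM of Bojungikgi and Sayeok at 20 µg/mL, and the Sayeok mean lay below them. NAALADL2, a peptidase-like membrane protein, measured 20.3, 26.9 and 20.2 CPM with Bojungikgi and 15.1, 16.8 and 16.0 CPM with Sayeok (0.49 ± 0.09, adjusted p 0.00712). Bojungikgi replicate 2 was its highest library, and without it the value was 0.34 (adjusted p 0.0611). DPYD, which degrades uracil and fluorouracil, measured 5.85, 5.98 and 5.37 CPM with Bojungikgi and 4.2, 4.28 and 4.14 CPM with Sayeok (0.44 ± 0.08, adjusted p 0.00773, and 0.0637 without that library). SLC4A4, a sodium bicarbonate cotransporter, measured 9.76, 10.5 and 10.4 CPM with Bojungikgi and 7.84, 7.80 and 7.67 CPM with Sayeok (0.39 ± 0.07, adjusted p 0.00627), and held in all 6 fits without 1 library. UST, a uronyl sulfotransferase, averaged 17.6 ± 0.369 CPM with Bojungikgi and 13.7 ± 0.873 CPM with Sayeok (0.36 ± 0.06, adjusted p 0.00547). BTBD9 averaged 18.4 ± 1.76 CPM and 14.3 ± 0.638 CPM in the same order (0.36 ± 0.07, adjusted p 0.0113, and 0.136 without Bojungikgi replicate 2). MACROD2, an ADP-ribosylhydrolase that spans 2060 kb, averaged 3.09 ± 0.0203 CPM and 2.17 ± 0.194 CPM (0.50 ± 0.10, adjusted p 0.0236).

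KIAA1549L had the largest log2 fold change of the called genes, 1.82 ± 0.37, at a very low level of 0.343 ± 0.0102 CPM with Bojungikgi and 0.0963 ± 0.0132 CPM with Sayeok. A level of 3 counts, the limit that a count of 0 allows, was 0.0419 to 0.0827 CPM over the 30 libraries. ENSG00000258302, annotated as antisense, and ENSG00000280402, of unsettled biotype, averaged 0.494 and 1.43 CPM with Bojungikgi and 0.202 and 0.645 CPM with Sayeok. Reads of ENSG00000258302 and of a partner on the other strand may likewise not be told apart. KIAA1549L and ENSG00000258302 had no adjusted p from DESeq2, and the filter of 1 CPM in 3 libraries left both untested. PLA2G4F, a cytosolic phospholipase A2, averaged 8.44 ± 0.391 CPM with Bojungikgi and 6.7 ± 0.38 CPM with Sayeok (0.33 ± 0.07, adjusted p 0.0447). VIL1, the microvillus actin bundler villin, averaged 168 ± 4.03 CPM and 150.0 ± 3.57 CPM in the same order (0.17 ± 0.04, adjusted p 0.0423). MACROD2, ENSG00000258302, PLA2G4F and VIL1 held in none of the 6 fits that left out 1 library, and KIAA1549L in 1. KIAA1549L, TLN2, MACROD2, ENSG00000258302 and ENSG00000280402 were also named after their values were seen.

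Genes of gut cell types gave few calls. Of the enterocyte list 20 genes were tested, and VIL1 was the only call. The list had 13 genes above 0, 7 below and a median of 0.06. At an unadjusted p of 0.05, 2 were higher and 2 lower. HNF4A, a regulator of enterocyte genes, averaged 103 ± 11.6 CPM with Bojungikgi and 89.1 ± 6.08 CPM with Sayeok (adjusted p 0.234). KRT20 was lower with Bojungikgi without passing, at a log2 fold change of -0.15 ± 0.05 with no overlap of libraries (adjusted p 0.276). FABP1 was also lower without passing, at -0.34 ± 0.14 with overlapping libraries (adjusted p 0.376). None of 21 goblet and mucin genes was called by edgeR or DESeq2, with 10 above 0, 11 below and a median of -0.01. At an unadjusted p of 0.05, 5 were higher and 1 lower. Of all genes 5.81% were higher and 5.5% lower at that p. MUC5AC, a gel-forming mucin, averaged 140.0 ± 23.3 CPM with Bojungikgi and 106 ± 5.73 CPM with Sayeok (0.40 ± 0.15, adjusted p 0.351). MUC3A, another mucin gene, was lower without being called, at 18.1, 16.9 and 18.7 CPM with Bojungikgi and 20.2, 20.9 and 20 CPM with Sayeok. REG4, a secretory cell lectin, averaged 17.6 ± 3.07 CPM and 14.6 ± 0.321 CPM with overlapping libraries (0.27 ± 0.09, adjusted p 0.276); without Bojungikgi replicate 2 it was 0.40 and passed (adjusted p 0.0217). None of 16 Wnt and stem cell genes was called by edgeR and 1, EPHB3, by DESeq2, with 4 higher and none lower at an unadjusted p of 0.05. EPHB3, an ephrin receptor of crypts, averaged 22.7 ± 0.415 CPM with Bojungikgi and 19.4 ± 0.351 CPM with Sayeok (adjusted p 0.0727 in edgeR), and the stem cell receptor LGR5 46.9 ± 2.7 CPM and 41.0 ± 2.01 CPM (adjusted p 0.208). Among 19 PPAR targets edgeR called none and DESeq2 called ACSL1 lower, with 3 higher and 6 lower at an unadjusted p of 0.05. PLIN2, a lipid droplet coat protein, averaged 8.56 ± 0.787 CPM with Bojungikgi and 10.6 ± 0.257 CPM with Sayeok (-0.31 ± 0.09, adjusted p 0.184). None of 35 interferon genes was called by either tool, 3 were lower and none higher at an unadjusted p of 0.05, and the median was -0.11. IFIT1 averaged 4.14 ± 0.239 CPM with Bojungikgi and 5.12 ± 0.215 CPM with Sayeok (adjusted p 0.342). The lists for heat shock, p53 targets, mitosis, DNA replication, NF-kB targets, YAP targets and cell junctions held no edgeR call either. Of these DESeq2 called GDF15 in the p53 list and CDC20 in the mitosis list, both lower. At an unadjusted p of 0.05 the p53 list had 3 higher and 6 lower members and the mitosis list 2 and 3.

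Ribosomal protein and respiratory chain genes were below 0 nearly throughout, with none called by edgeR or DESeq2. All 34 tested ribosomal protein genes of the list were below 0, with a median of -0.18 and 4 lower and none higher at an unadjusted p of 0.05. Of all genes 49% were below 0 and 5.5% were lower at that p. RPL5 averaged 627 ± 75.7 CPM with Bojungikgi and 713 ± 13 CPM with Sayeok (-0.19 ± 0.07, adjusted p 0.329). Of 30 nuclear genes of oxidative phosphorylation 28 were below 0, with a median of -0.15 and 3 lower at that p. Without Bojungikgi replicate 2 the medians were -0.03 and -0.02. The mitochondrial ribosomal RNA MT-RNR2 averaged 10900 ± 1330 CPM with Bojungikgi and 10500 ± 509 CPM with Sayeok, and MT-RNR1 1560 ± 97.9 CPM and 1490 ± 85.3 CPM, without passing (adjusted p 0.874 and 0.844).

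The lower doses gave no call. At 100 µg/mL 0 of 18783 genes passed with edgeR (0%), 935 had an unadjusted p under 0.05 (4.98%), and DESeq2 called 0. At 20 µg/mL 0 passed with edgeR, 329 had an unadjusted p under 0.05 (1.75%), and DESeq2 called 1. Of the 15 genes higher at 500 µg/mL, 11 had the same sign at 100 and 10 at 20 µg/mL; of the 30 lower ones, 23 and 24 did. Over all genes, 51.5% and 51.9% had the sign they had at 500. At 100 µg/mL the called genes' medians were 0.10 for the higher and -0.09 for the lower ones, against 0.49 and -0.44 at 500. CYP1B1 was at 0.16 (unadjusted p 0.00152), ALDH1A3 at 0.17 (unadjusted p 0.00709) and IGFL2-AS1 at -0.37 (unadjusted p 7.98e-04) at 100 µg/mL.

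The difference between extracts itself differed between 500 and 20 µg/mL for 5 genes (0.0266%). CYP1B1 was the only one with a positive value, and AKR1C2, IGFL2-AS1, ACSS2 and SQSTM1 were negative; without Bojungikgi 500 replicate 2 the count was also 5. The called genes at 500 µg/mL were also set against the 20 µg/mL libraries of the same extract. Of the 15 higher genes 6 were up in Bojungikgi and down in Sayeok by the sign of the log2 fold change, 3 were up in both and 6 were down in both. Of the 30 lower genes 14 were down in Bojungikgi and up in Sayeok, 12 were up in both and 4 were down in both. The genes were picked for their difference at 500 µg/mL, which favours such opposite signs. Some signs rest on values near 0 in Bojungikgi, such as -0.02 for DDIT4, -0.06 for SQSTM1, 0.03 for BTBD9 and 0.06 for TLN2. AKR1C2 had log2 values of 0.73 in Bojungikgi and 1.56 in Sayeok, so both extracts carried more of it at the higher dose. NDUFA4L2 had 0.09 and 1.49, and IGFL2-AS1 -0.78 and 0.08, where nearly all of the change lay in a single extract. These changes share the 500 µg/mL libraries with the comparison above and were not tested here.

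**Figure D4:**
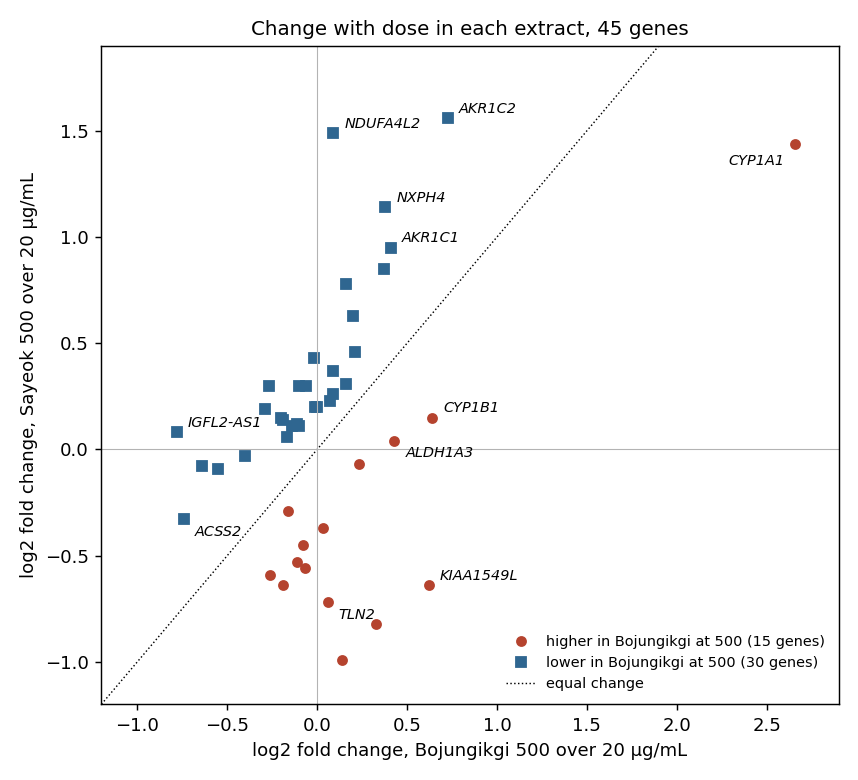
Log2 fold change from 20 to 500 µg/mL within each extract, Bojungikgi on the horizontal and Sayeok on the vertical axis, for the 15 genes called higher (circles) and 30 called lower (squares) in Bojungikgi at 500 µg/mL. CYP1A1 lies far right at 2.66 in Bojungikgi and 1.44 in Sayeok; AKR1C2 and NDUFA4L2 lie at the top with 1.56 and 1.49 in Sayeok.

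Length in the genome ran alongside the difference at 500 µg/mL. The 15 higher genes spanned a median of 298 kb, against 16.2 kb for the 30 lower genes and 20.8 kb for all genes tested that have a position; 7 of the 15 and 1 of the 30 spanned over 300 kb, as did 490 of the 18652 genes tested that have a position. Over 13665 protein-coding genes the median log2 fold change was -0.082 for spans under 10 kb and 0.131 for spans over 300 kb. Across these genes, which share the same 6 libraries and are not independent replicates, Spearman's rho between span and log2 fold change was 0.363 at 500, 0.104 at 100 and 0.003 at 20 µg/mL. Without Bojungikgi replicate 2 it was 0.173, with medians of -0.025 and 0.072 at the shortest and longest spans. Genes over 300 kb took 1.81% of the counts of Bojungikgi replicate 2 and 1.55% and 1.57% in the other 2 Bojungikgi libraries, against 1.49% to 1.52% in Sayeok libraries. The part of span in the calls of the long genes was not tested.

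**Figure D5:**
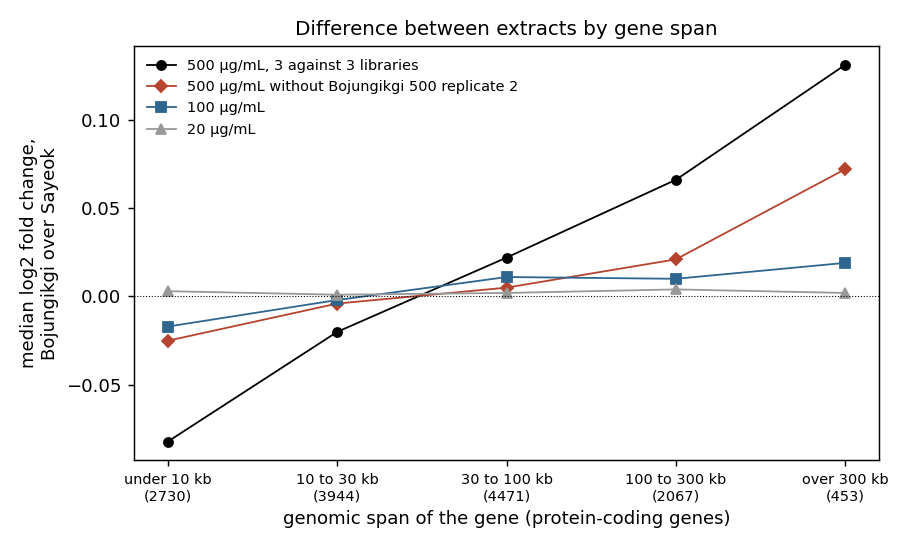
Median log2 fold change, Bojungikgi over Sayeok, of protein-coding genes in 5 classes of genomic span (number of genes in brackets) at 500 µg/mL with and without Bojungikgi replicate 2, and at 100 and 20 µg/mL. The medians climb with span at 500 µg/mL, to 0.131 with all 6 libraries and 0.072 without that library, and stay within 0.02 of 0 at the lower doses.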

How the data were processed

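mRNA was sequenced from HT29 cells. Per the labels' protocols, 1 µg of total RNA went into a directional library kit and both ends were read over 100 bp. The authors deposited expected counts, 1 value per gene and library, from RSEM 1.3.3. Their processing notes further list STAR 2.7.3a, Trim Galore 0.6.5, FastQC 0.11.9 and the build GRCh38, while no source used here states the annotation release or the strand setting. Non-whole values made up 25.48% of those above 0 (tolerance 1e-06). The table's other 240 columns match no label here and were not used.

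Expected counts were rounded to whole numbers. Genes were kept by edgeR's filterByExpr at a minimum count of 10, scaled by TMM and fitted in edgeR 4.0.16 (robust quasi-likelihood, R 4.3.3) with 1 mean for each of 13 groups over all 30 libraries, which left 17 residual degrees of freedom and a common biological variation of 6.38%. Tests are two-sided with Benjamini-Hochberg adjustment over all 18783 genes and a threshold of 0.05; the code was tested on simulated data. CPM are TMM-normalised counts per 1e6, and SE is that of the log2 fold change. The 30 library totals ran from 36273849 to 71625585 counts, which limits counting error only.

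Symbols came from a gene name table (56558 IDs) and GENCODE 29 (497 more), positions and spans from GENCODE 29 on GRCh38. Genes were named by size among called genes (at least 5 CPM in 1 group, no overlap, 12 in each direction), by list (up to 4 members with the smallest p) and from a reference list; others are stated as named after their values were seen. The members and lists were chosen with earlier results of these data known. A few called genes and list members are counted but not reported here by name. Lists are described by counts and medians with no set test. Alternatives were RLE scaling, 2 other filters, fewer libraries, a replicate block, DESeq2 1.42.0 and leaving out each library. The counts of list members called, the medians by span and the motif TGATGNAA were added after the data were seen.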

Additional observations from a re-analysis of the deposited data

Results flagged for a closer look

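For 5 genes the difference between the extracts was not the same at 500 as at 20 µg/mL, by edgeR's quasi-likelihood test of the difference of differences (adjusted p under 0.05 over all genes). CYP1B1 gave 0.49 on the log2 scale, with each Bojungikgi library above each Sayeok library at 500 µg/mL. AKR1C2 gave -0.83, IGFL2-AS1 -0.86, ACSS2 -0.41 and SQSTM1 -0.36, each with the Bojungikgi libraries below the Sayeok libraries at 500 µg/mL.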

How the results depend on the processing

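At 500 µg/mL the count of 45 genes was 44 to 52 under RLE scaling, a filter of 1 CPM in 3 libraries, the 18 Bojungikgi and Sayeok libraries alone, and the replicate block over 30 or 18 libraries. It was 593 with no filter (4 of them outside the genes tested), 95 with DESeq2 (43 shared with the 45, the other 2 having no adjusted p there), 2 in the 6 libraries alone and 0 there with the replicate block. Leaving out 1 library gave 22 to 69, with 22 without Sayeok replicate 1, 27 without Bojungikgi replicate 2, 29 without Sayeok replicate 2 and 69 without Bojungikgi replicate 3; 19 of the 45 genes, 4 higher and 15 lower, were called in all 6. All 45 kept their sign in each alternative that tested them. Counts of 0 at 100 µg/mL became 113 with no filter and 2 with the block in the groups compared alone. Counts of 0 at 20 µg/mL became 79 with no filter, 1 in the groups compared alone, 9 there with the block and 1 with DESeq2. The 5 genes of the dose difference became 182 with no filter, 3 in the groups compared alone with or without the block, 2 with the block over 18 libraries and 11 with DESeq2, and 4 to 7 when 1 library was left out. Why the unfiltered and the 6-library fits differ was not tested. Deviations from the group means correlated at -0.044, -0.101 and 0.014 between same-numbered libraries at 500 µg/mL. At 20 µg/mL they correlated at 0.063, 0.049 and 0.035. With 3 libraries in a group these values cannot tell whether same-numbered libraries were handled together. The replicate block moved the 45 calls to 52 over 30 libraries.

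Uncalled genes near 0 changed sign: OAS2 from 0.01 to 0 or just below in 5 fits on other libraries or with DESeq2, and when 1 library was left out OAS2 ran from -0.11 to 0.19, SLC7A11 from -0.12 to 0.03, AHRR from -0.02 to 0.14, MX1 from -0.16 to 0.01, MUC13 from -0.02 to 0.03 and MT-RNR2 from -0.02 to 0.15. The median of the fatty acid synthesis list, -0.01, ran from -0.07 to 0.03 when 1 library was left out. With no filter 10 NRF2 and 7 ATF4 list members were called lower; in the 6 libraries alone 0 were. A level of 3 counts was 0.0419 to 0.0827 CPM.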
